A study of Mus musculus with 6 samples.

Results

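Genes of vasoactive peptides and of the angiotensin pathway were compared between separate cultures kept for 16 h in normoxia or hypoxia. Some encode the vasodilator peptides adrenomedullin (Adm) and adrenomedullin 2 (Adm2, also called intermedin) and their receptor chains Calcrl, Ramp1, Ramp2 and Ramp3. Others encode the angiotensin precursor (Agt), angiotensin-converting enzyme (Ace), the vasoconstrictor endothelin 1 (Edn1) and its receptor (Ednra). The 10 genes were chosen by symbol, with their normoxia and hypoxia values already known, so their levels and differences are descriptions and no test of them is offered as evidence. Of the 10, 9 have a measurement of their own among the 51482 measurements of the deposited table. Ramp2 is measured only jointly with the overlapping gene Vps25.

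The cells were wild-type (WT) mouse embryonic fibroblasts (MEF) immortalised with SV40, and the label names no clone or embryo of origin. In normoxia 3 cultures were kept at 21% oxygen and in hypoxia 3 cultures at 0.5% oxygen, each for 16 h, with no drug or further genotype in either group. The authors combined the 3 biological replicates of a condition into 1 group value per gene in FPKM (fragments scaled to transcript length and library size), so no spread between cultures can be given, and the sequencing depth is unknown. "Rose" and "fell" are used for measurements with a q below 0.05 in the Cuffdiff test of the authors' deposited table, and "not tested" for those the table leaves out of that test.

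Adrenomedullin is a short secreted peptide that relaxes blood vessels and is known as a target of the hypoxia-inducible factors. It acts through the class B receptor CALCRL, which reaches the cell surface and gains its ligand preference only with a receptor activity-modifying protein: RAMP1 gives a receptor for calcitonin gene-related peptide (CGRP), and RAMP2 or RAMP3 gives adrenomedullin receptors. In the renin-angiotensin pathway renin cuts angiotensinogen to angiotensin I, angiotensin-converting enzyme trims this to angiotensin II, and angiotensin II signals mainly through the AT1 receptor, while endothelin 1 is a strong constrictor made mostly by endothelium and read by its A and B receptors.

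The stretches of promoter below are shown because they belong to the pair of members with the largest rises, Adm and Ace, and to the only other member whose stretch holds a letter match to the core of the hypoxia response element, Ramp3. Each is the 250 bases before a RefSeq transcript start on GRCm38.p6, written 5′ to 3′ on the gene's strand, which is the plus strand for all 3 genes. Capitals mark the motifs ACGTG and GCGTG on either strand, so that CACGT and CACGC are the same motifs read on the opposite strand. The Adm stretch is chr7:110627407-110627656, the Ramp3 stretch chr11:6658283-6658532, the first Ace stretch chr11:105967698-105967947 and the second Ace stretch chr11:105974939-105975188.
Adm: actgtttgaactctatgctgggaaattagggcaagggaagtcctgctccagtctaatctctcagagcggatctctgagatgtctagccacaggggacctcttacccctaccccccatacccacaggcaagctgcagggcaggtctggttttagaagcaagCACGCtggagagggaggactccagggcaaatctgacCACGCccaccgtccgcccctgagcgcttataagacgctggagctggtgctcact
Ramp3: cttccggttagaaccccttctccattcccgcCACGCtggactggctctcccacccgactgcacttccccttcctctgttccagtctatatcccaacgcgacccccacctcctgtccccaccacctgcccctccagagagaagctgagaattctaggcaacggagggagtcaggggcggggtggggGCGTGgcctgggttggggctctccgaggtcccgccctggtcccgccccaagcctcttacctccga
Ace, first start: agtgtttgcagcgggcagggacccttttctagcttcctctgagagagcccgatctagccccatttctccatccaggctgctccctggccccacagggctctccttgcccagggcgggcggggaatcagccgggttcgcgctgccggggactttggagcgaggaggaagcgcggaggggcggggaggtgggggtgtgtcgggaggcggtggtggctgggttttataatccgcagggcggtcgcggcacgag
Ace, second start: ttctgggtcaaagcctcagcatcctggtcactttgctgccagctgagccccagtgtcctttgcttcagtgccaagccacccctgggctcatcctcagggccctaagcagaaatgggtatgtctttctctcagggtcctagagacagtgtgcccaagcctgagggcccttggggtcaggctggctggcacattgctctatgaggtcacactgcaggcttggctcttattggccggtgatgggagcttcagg

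The Adm stretch holds GCGTG 2 times on the opposite strand, the nearer match ending 50 bases and the farther one 86 bases before the start. Ramp3 holds GCGTG once on each strand, with the nearer match ending 61 bases before the start. Neither Ace stretch holds either motif. The second Ace start lies 7.24 kb after the first, inside the gene, and its stretch touches no annotated exon; a start inside the gene is known to give the shorter form of the enzyme made in the testis, and the deposited value is 1 per gene and does not separate the forms. RefSeq gave windows for 9 of the 10 genes, 10 windows in all, with none for Ramp2. Of these, 2 hold a match to either motif, and the windows of Adm2, Calcrl, Ramp1, Agt, Edn1 and Ednra hold none. Over all 32851 RefSeq windows of this length 38.6% hold either motif, 28.2% GCGTG and 16.6% ACGTG. A match is only a match of letters, and its absence says nothing of sites elsewhere.

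Among the members, 5 rose (Adm, Adm2, Ramp1, Ramp3 and Ace), 2 fell (Edn1 and the joint measurement of Ramp2 and Vps25) and 3 were not tested (Calcrl, Agt and Ednra). The authors' deposited table calls 57.9% of its 14575 tested measurements, 28.9% as higher and 29.0% as lower in hypoxia. Since the members were chosen with this contrast in view, nothing is read from their count. The median log2 difference of FPKM + 1 (hypoxia minus normoxia) was 0.25 over the 10 members and 0.65 over the 7 tested ones. Over all tested measurements it was -0.0094. Each called member has a q of 0.000139, the smallest value that the authors' deposited table holds, which 5148 of its measurements have, and q gives them no order.

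**Figure D1:**
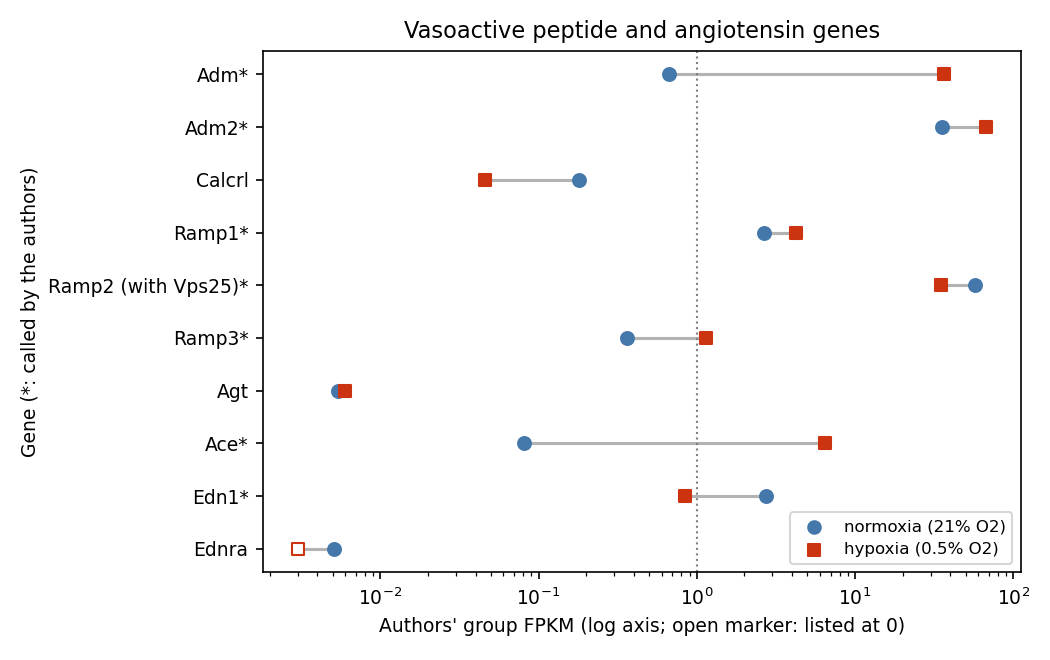
Group FPKM (log axis) of the 10 members in normoxia (blue circles) and hypoxia (red squares), with a grey line joining the 2 values, a dotted line at 1 FPKM and an asterisk on called genes; an open marker stands for a value listed at 0 and is drawn at the left edge. Adm and Ace cross the dotted line upwards over long distances (0.669 to 36.4 FPKM and 0.0813 to 6.44 FPKM), whereas Calcrl, Agt and Ednra stay to its left in both conditions.

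The ligand genes Adm and Adm2 both rose, from very different starting levels. The group value of Adm (chromosome 7, 110627661 to 110629820 on GRCm38) rose 54.5-fold, from 0.669 FPKM to 36.4 FPKM. In level it stood above 13.5% of tested measurements in normoxia and 78.1% in hypoxia. Adm2 (chromosome 15, 89322720 to 89324731) rose 1.90-fold, from 35.5 FPKM to 67.5 FPKM. Adm2 was the more abundant ligand transcript per length in both conditions, and the ratio of Adm to Adm2 went from 0.0188 to 0.539. Adm made up 1.85% of the summed level of both genes in normoxia (sum 36.2 FPKM) and 35.0% in hypoxia (sum 104 FPKM). The genes for the related peptides CGRP (Calca and Calcb) and amylin (Iapp) were not tested, and none of these 3 exceeded 0.146 FPKM.

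**Figure D2:**
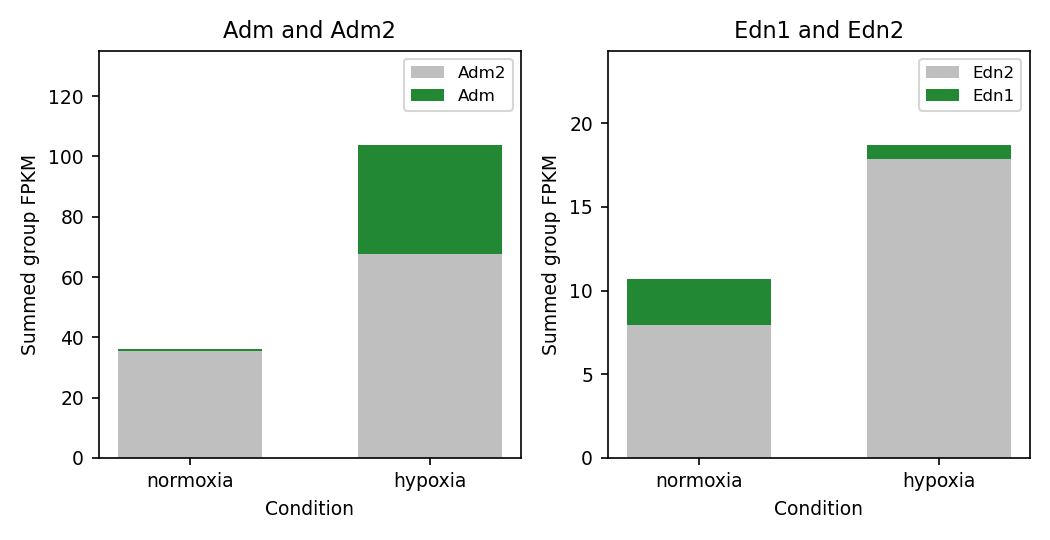
Summed group FPKM of Adm and Adm2 (left) and of Edn1 and Edn2 (right) in normoxia and hypoxia, stacked from 0, with the share of Adm or Edn1 in green. The green share grows from 1.85% to 35.0% on the left and shrinks from 25.7% to 4.50% on the right.

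The gene of the receptor chain that adrenomedullin needs had a low value and was not tested, whereas Ramp1 and Ramp3 were tested and rose. Calcrl (chromosome 2, 84330626 to 84425411) was not tested, with normoxia at 0.180 FPKM and hypoxia at 0.0458 FPKM, so no direction is read from these values. The related calcitonin receptor gene Calcr was listed at 0 in both conditions. Ramp1 (chromosome 1, 91179822 to 91225196), whose product completes the CGRP receptor, rose from 2.67 to 4.21 FPKM (1.58-fold). Ramp3 (chromosome 11, 6658521 to 6677475), whose product completes an adrenomedullin receptor, rose from 0.362 to 1.14 FPKM (3.15-fold). In hypoxia the level of Ramp1 was 92.0 times that of Calcrl and that of Ramp3 24.9 times, and in normoxia these ratios were 14.9 and 2.02, all over the low and untested values of Calcrl. A 0 in the table may not mean that a transcript was absent. Ndufs3 and Ptpmt1, both used by cells with a respiratory chain, are also listed at 0 in both conditions, and the reason was not tested.

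Ramp2, the other adrenomedullin receptor partner, cannot be given a level of its own. Its annotation (chromosome 11, 101246028 to 101259546) covers all of Vps25 (101253707 to 101259549) but the last bases, on the same strand, and Vps25 encodes a subunit of the ESCRT-II sorting complex. The authors' deposited table lists both under 1 value, which fell from 57.0 to 34.9 FPKM (1.63-fold), and how much of it is Ramp2 cannot be told apart. By group level at least 1 FPKM in either condition, the adrenomedullin receptor partners present are therefore Ramp3 (in hypoxia only, at 1.14 FPKM) and possibly Ramp2. Ramp1, whose product completes the CGRP receptor, also reaches this level, and Calcrl does not. RAMPs are also reported to pair with other receptors, and 7 of these were looked up after the member values had been seen. Among them Pth1r (0.748 and 0.686 FPKM, q = 0.638 in the authors' deposited table) and Gper1 (0.279 and 0.101 FPKM, q = 0.389) were tested and not called, Gcgr and Pth2r were below 0.1 FPKM, and Sctr, Crhr1 and Casr were listed at 0.

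Other genes linked to the binding or maturation of adrenomedullin ranged from near 0 to 24.4 FPKM. Ackr3, the gene of an atypical receptor that binds adrenomedullin and the chemokine CXCL12, rose from 0.399 to 1.70 FPKM (4.27-fold). Pam, the enzyme that amidates peptide ends and so finishes adrenomedullin, was at 10.6 and 10.8 FPKM and was not called (q = 0.940 in the authors' deposited table). Crcp, which encodes a protein linked to CGRP receptor signalling and a subunit of RNA polymerase III, was at 23.1 and 24.4 FPKM and was not called (q = 0.561). Gpr182, once proposed as an adrenomedullin receptor, was at 0.0299 FPKM in normoxia, listed at 0 in hypoxia and not tested.

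Ace (chromosome 11, 105967945 to 105989964) was near 0 (below 0.1 FPKM) in normoxia and above 1 FPKM in hypoxia. Its group value went from 0.0813 to 6.44 FPKM (79.2-fold), which is the third largest rise among the 14529 tested measurements with neither value at 0, and Adm ranks 11 in that order. Called rises of at least 50-fold numbered 8, Ace and Adm among them. In level Ace stood above 0.851% of tested measurements in normoxia and 40.9% in hypoxia. The normoxia value is so low that the size of the fold depends on it, and on the scale of log2(FPKM + 1) the difference was 2.78.

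**Figure D3:**
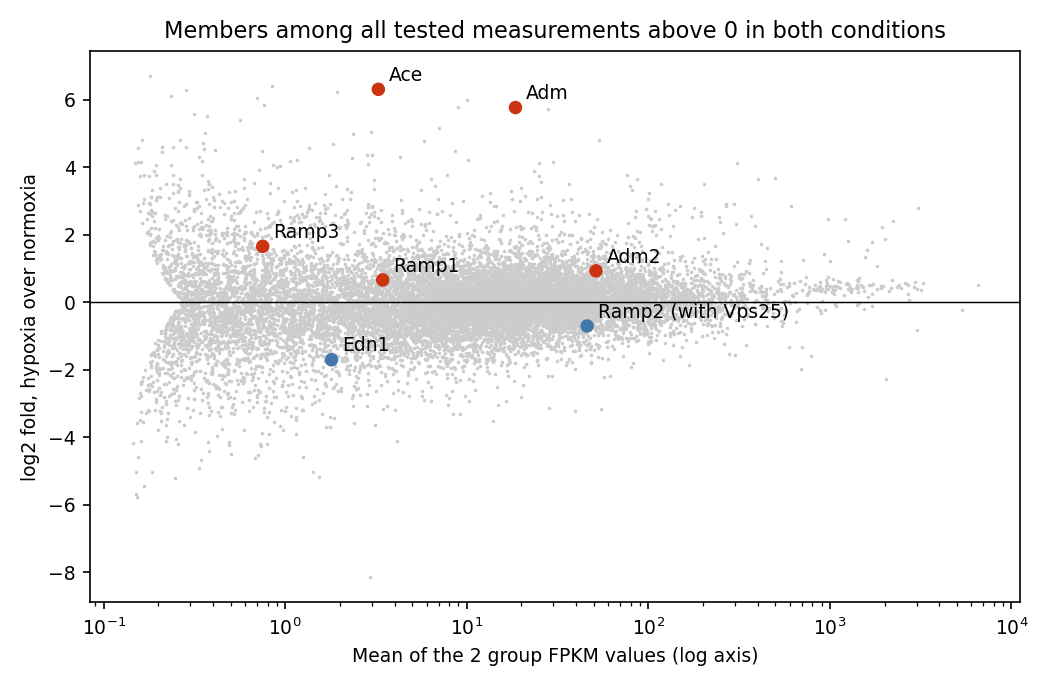
The log2 ratio of hypoxia over normoxia against the mean of both group values in FPKM (log axis) for the 14529 tested measurements with neither value at 0 (grey), with the 7 tested members in red (higher) or blue (lower). Ace at 6.31 and Adm at 5.77 on the log2 scale lie at the upper edge of the cloud, and Adm2 and Ramp1 lie inside it.

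The genes on either side of Ace in the angiotensin pathway were at or near 0, apart from Agtr1a. Agt, which encodes the angiotensin precursor (chromosome 8, 124556534 to 124569706), was not tested, with normoxia at 0.00543 FPKM and hypoxia at 0.00594 FPKM. The renin gene Ren1 was listed at 0 in both conditions, and Cma1 and Ctsg, whose proteases can also make angiotensin II, did not exceed 0.0484 FPKM. The AT1 receptor gene Agtr1a was at 0.410 and 0.371 FPKM and was not called (q = 0.782 in the authors' deposited table). In normoxia the level of Ace was 0.198 times that of Agtr1a and in hypoxia 17.3 times. Agtr1b and Mas1 were listed at 0, and Agtr2 was below 0.01 FPKM in normoxia and listed at 0 in hypoxia.

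Genes less specific to angiotensin reached higher levels. Atp6ap2, the prorenin receptor gene whose product also serves the vacuolar proton pump, rose from 33.5 to 46.1 FPKM. Lnpep, the aminopeptidase that binds angiotensin IV, rose from 11.9 to 23.8 FPKM (2.00-fold). Agtrap, a protein that promotes AT1 receptor internalisation, fell from 13.9 to 8.26 FPKM. Among the peptidases that degrade angiotensins or kinins, Mme (neprilysin) fell from 1.36 to 0.544 FPKM, Prep from 12.6 to 6.94 FPKM, Thop1 from 33.4 to 24.3 FPKM and Nln from 11.3 to 7.99 FPKM. Anpep (7.48 and 7.71 FPKM, q = 0.836 in the authors' deposited table) and Prcp (11.8 and 10.7 FPKM, q = 0.290) were not called. Of the 9 tested genes listed for angiotensin receptors and breakdown, with Agtr1a and Agtrap included, Lnpep was the 1 that rose. Another 5 fell and 3 missed the threshold, beside 28.9% higher and 29.0% lower over all tested measurements. Of the 5 that fell, Mme alone changed at least 2-fold (2.49-fold), and the others fell between 1.38-fold (Thop1) and 1.81-fold (Prep). The median log2 difference of FPKM + 1 over the 9 was -0.44.

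ACE also cuts peptides outside the angiotensin pathway. The kininogen genes Kng1 and Kng2, which encode the source of bradykinin, and the bradykinin receptor gene Bdkrb2 did not exceed 0.0667 FPKM in either condition, and Bdkrb1 was listed at 0. Tac1, which encodes substance P, was listed at 0. Tmsb4x, the gene of thymosin beta 4, from which Prep helps release a tetrapeptide that ACE degrades, was looked up after the member values had been seen. Its values of 371 FPKM (normoxia) and 328 FPKM (hypoxia) were not called (q = 0.0838 in the authors' deposited table).

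Endothelin 1 moved the other way from adrenomedullin. Edn1 (chromosome 13, 42301476 to 42307990) fell from 2.75 to 0.843 FPKM (3.27-fold). In the order of falls it ranks 600 among 14529 measurements. Its paralog Edn2, which encodes a peptide acting on the same receptors, rose from 7.96 to 17.9 FPKM (2.24-fold), so that the ratio of Edn2 to Edn1 went from 2.89 to 21.2. Edn1 made up 25.7% of the summed level of both genes in normoxia (10.7 FPKM) and 4.50% in hypoxia (18.7 FPKM). Edn3 was listed at 0.

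The endothelin receptor genes were at or near 0, while those of the maturing enzymes were expressed. Ednra (chromosome 8, 77663031 to 77724464) was at 0.00508 FPKM in normoxia and listed at 0 in hypoxia, and Ednrb was at 0.00334 and 0.00394 FPKM; neither was tested. Ece1, which cuts the endothelin precursor, was at 66.6 and 58.4 FPKM and was not called (q = 0.813 in the authors' deposited table). Ece2 shares 1 measurement with Eef1akmt4, which fell from 9.63 to 5.23 FPKM. Furin, a protease that prepares this and many other precursors, fell from 20.6 to 10.9 FPKM (1.88-fold).

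Beyond the members, 84 further symbols were listed for the pathways of vasoactive peptides, of which 81 had a measurement and 32 were tested. Of the 32, 7 rose, 13 fell and 12 were not called, which is 21.9% higher and 40.6% lower beside 28.9% and 29.0% over all tested measurements. Their median log2 difference of FPKM + 1 was -0.063. With a change of at least 2-fold also required, 5 of the 32 counted as higher and 4 as lower, so falls no longer outnumbered rises. Over all 14575 tested measurements, 1316 then counted as higher and 1438 as lower. Tac2, the gene of neurokinin B, rose from 0.311 to 19.7 FPKM, and its receptor gene Tacr3 was listed at 0. Apln, which encodes the vasodilator apelin, rose from 1.42 to 6.50 FPKM (4.58-fold), while its receptor gene Aplnr was at 0.0382 and 0.0738 FPKM and was not tested. Apela, the other apelin receptor ligand, is measured jointly with Trim60 and Trim61, and this value fell from 19.8 to 5.90 FPKM. For Tac2 and Apln, as for Adm, a ligand gene that rose stood beside a main receptor gene that was not tested. Of the 81 further genes with a measurement 49 were not tested, so nothing is read from these pairs.

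Npr1, the guanylyl cyclase receptor of atrial natriuretic peptide, fell from 6.88 to 2.53 FPKM (2.72-fold). Adcyap1r1, the receptor of the vasodilator PACAP, fell from 8.57 to 5.07 FPKM. Npy1r, a receptor of the constrictor neuropeptide Y, fell from 1.49 to 0.592 FPKM. Npr2, the receptor of C-type natriuretic peptide, was at 10.2 and 10.5 FPKM (q = 0.808 in the authors' deposited table), and Npr3 at 0.318 and 0.391 FPKM (q = 0.445). Their ligand genes Nppa, Nppb, Nppc, Adcyap1 and Npy did not exceed 0.0447 FPKM.

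Adrenomedullin receptors signal through the stimulatory G protein and cyclic AMP. Gnas, which encodes that G protein's alpha subunit, rose from 793 to 1103 FPKM. Adenylyl cyclase genes did not move together: Adcy7 fell from 14.1 to 7.73 FPKM and Adcy1 from 0.438 to 0.279 FPKM. Adcy6 (30.7 and 34.7 FPKM), Adcy3 (4.45 and 4.66 FPKM) and Adcy9 (1.34 and 1.20 FPKM) were not called, with q between 0.136 and 0.738 in the authors' deposited table. Nos3, the endothelial nitric oxide synthase gene, was at 0.361 and 0.438 FPKM (q = 0.549), and Nos1, Nos2 and the soluble guanylyl cyclase genes were not tested.

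**Figure D4:**
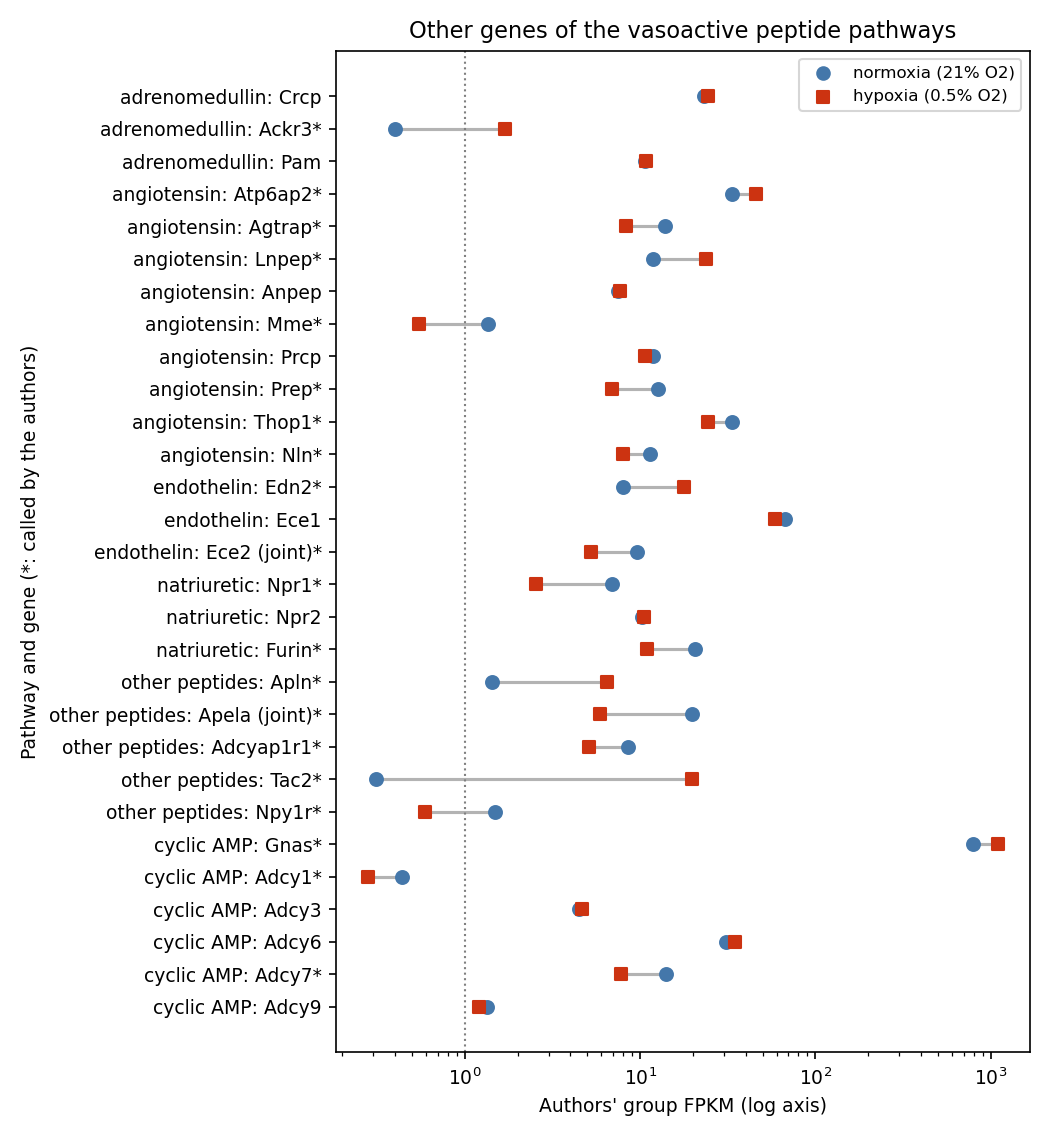
Group FPKM (log axis) in normoxia (blue circles) and hypoxia (red squares) of the other pathway genes that were called or reached 1 FPKM, grouped by pathway, with an asterisk on called genes and a dotted line at 1 FPKM. Tac2 spans the longest distance, from 0.311 to 19.7 FPKM, and most angiotensin peptidase genes have the red square to the left of the blue circle.

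The genes next to the members did not share 1 pattern. On either side of Adm, Sbf2, 12.7 kb away on the opposite strand, rose from 8.91 to 13.4 FPKM, and Ampd3, 138.4 kb away, rose from 2.26 to 5.24 FPKM. Beside Ace, Cyb561, 14.6 kb away on the opposite strand, rose from 2.17 to 6.37 FPKM, and Ace3, 4.7 kb away, was listed at 0. Next to Adm2, Sbf1 was at 64.0 and 66.2 FPKM (q = 0.863 in the authors' deposited table), and Miox was at 0.0222 and 0.0610 FPKM and was not tested. Around Ramp2, Ezh1 rose from 6.18 to 19.1 FPKM (3.08-fold) and Wnk4 fell from 3.04 to 1.99 FPKM. Beside Edn1, Hivep1 (5.54 and 5.43 FPKM, q = 0.824) and Phactr1 (0.281 and 0.167 FPKM, q = 0.141) were not called. Beside Ramp1, Ube2f fell from 23.0 to 15.4 FPKM and Rbm44 was listed at 0, and both coding neighbours of Ramp3 were listed at 0.

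Transcripts annotated on the opposite strand overlap 4 of the called members. The antisense gene Gm28863 over Adm was listed at 0 in normoxia and at 0.0387 FPKM in hypoxia, and Gm11651 over Ace at 0 and 0.00915 FPKM. Gm11978, a pseudogene over the start of Ramp3, was listed at 0, and for Gm47118 over Edn1 no measurement under that name was found. The libraries were stranded, but no source used here says whether the counting used strand, so reads of these partners may not have been kept apart.

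In the pair of group values, 3 tested protein-coding genes lay nearest to each of Adm and Ace among 11712 compared. The measure was the distance of log2(FPKM + 0.01) over only 2 conditions. For Adm these were 2610528A11Rik (1.04 and 54.7 FPKM, distance 0.863), Rnf208 (1.03 and 19.3 FPKM, 1.11) and Fam71f2 (0.735 and 16.5 FPKM, 1.15). For Ace they were Rora (0.0507 and 3.79 FPKM, distance 0.964), Myh7b (0.175 and 5.77 FPKM, 1.03) and Epm2a (0.138 and 3.55 FPKM, 1.10).

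Markers of the labelled cell type and of possible others were read beside these values. The 8 fibroblast markers ranged from 3.11 to 2249 FPKM, with S100a4 measured only jointly with Gm42674 and S100a3. Vim rose from 883 to 2249 FPKM, Col1a2, Col3a1, Pdgfrb and Thy1 fell, and Col1a1, Pdgfra and the joint measurement of S100a4 were not called. Of 9 endothelial markers the 8 with own measurements did not exceed 0.0891 FPKM in normoxia or 0.0906 FPKM in hypoxia, with sums of 0.296 and 0.175 FPKM and Emcn and Cldn5 listed at 0, while Egfl7, measured jointly with Fam69b and Gm20532, was at 49.0 and 59.2 FPKM and was not called (q = 0.0797 in the authors' deposited table). Smooth muscle genes that fibroblasts also express were present and did not move together. Acta2 fell from 147 to 82.0 FPKM and Smtn from 29.3 to 22.6 FPKM, while Cnn1 rose from 13.1 to 21.0 FPKM and Tagln from 101 to 133 FPKM. Des (11.0 and 9.46 FPKM) was not called, and Myh11 was at 0.0629 and 0.0671 FPKM and was not tested. Of 5 macrophage and leukocyte markers, Ptprc did not exceed 0.00222 FPKM, Adgre1 was listed at 0 and Csf1r was at 0.0347 and 0.0800 FPKM. Cd68 rose from 1.32 to 2.27 FPKM and Cd14 fell from 1.91 to 1.01 FPKM, and their part in the members' values was not tested. The epithelial markers Epcam, Cdh1, Krt8 and Krt18 had no value below 3.76 FPKM and did not move together. Krt18 rose from 313 to 443 FPKM, Krt8 fell from 28.3 to 10.1 FPKM and Cdh1 from 5.93 to 3.76 FPKM, and Epcam (5.97 and 5.22 FPKM) was not called. The part of these epithelial markers in the members' values was not tested. All 7 hypoxia-responsive genes read beside the labels rose, from 2.72-fold (Egln3) to 12.8-fold (Ndrg1), beside 28.9% higher over all tested measurements. This list was chosen with earlier results of these data known, so its count is a description. In these bulk samples fewer cells with a transcript and less transcript per cell cannot be told apart.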

How the data were processed

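RNA of 6 samples was sequenced from stranded, poly-A selected libraries. The submitters' processing notes name the build GRCm38 and the tools Cuffdiff 2.2.1, Cufflinks, HISAT2 2.1.0 and StringTie 1.3.4d. The authors deposited 1 FPKM per gene and group and, per the file headers, their q-value, p-value, log2 fold change and test statistic (a score left unused). No source used here says how libraries were scaled.

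The 53207 rows were reduced to 51482 measurements by counting repeated rows once, and 14575 of these are marked as tested across all genes. Folds are ratios of the deposited FPKM, and differences of log2(FPKM + 1) serve for medians. Since single samples have no values, no test was run here, and calls are the authors'. At least 1 FPKM in either group counted as expressed. Gene coordinates are 1-based from GENCODE M21 on GRCm38, and promoter windows come from RefSeq on GRCm38.p6. Named genes were the members, the pathway genes that were called or reached 1 FPKM, and coding neighbours of called members. Some pathway genes are not reported here. Members, lists and rules were chosen with earlier results of these data known. Counting and motif code (Python 3.11.15, pandas 2.3.3) was tested on simulated data.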

Additional observations from a re-analysis of the deposited data

How the results depend on the processing

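No paired analysis was possible because the table holds 1 value per gene and condition, and for the same reason no replicate could be left out. Depth is unknown, so genes near 0 cannot be told from genes without transcripts. With at least a 2-fold change required beside q below 0.05, 3 members counted as higher (Adm, Ramp3 and Ace) and 1 as lower (Edn1), 5 other pathway genes as higher instead of 7 and 4 as lower instead of 13, and 1316 measurements as higher and 1438 as lower over the table. Without measurements that name several genes, 1 member counted as lower. At a level of 5 FPKM, 4 members counted as expressed, with Ramp2 among them only through its joint measurement with Vps25. The median log2 difference over the members was 0.32 with a pseudocount of 0.1, 0.71 for members with a mean of at least 1 FPKM, 0.16 after scaling to equal totals and 0.26 after scaling by the median of ratios. Scaling to equal totals moved the median of all tested measurements by -0.16, and under either scaling 0 called members and 0 called pathway genes changed direction. A q below 0.01 left the members' calls at 5 higher and 2 lower.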
